A study of Drosophila melanogaster with 3 samples.

Results

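The Myc, Max and Mnt network was described here by 5 genes, Mnt, Myc, Max, Mondo and bigmax, in chromatin immunoprecipitation sequencing (ChIP-seq) of the transcription factor Bab1 from whole adult female Drosophila melanogaster. The 5 genes are listed by name out of 18164 annotated genes, and they were selected with the Bab1 peaks at them already known, so that a peak at each is a property of the choice and was not tested. A peak was given to a gene when its summit, the deposited point of highest signal, lay in the gene body or in the 1 kb upstream. The flies carried a bab1 transgene with a C-terminal GFP tag (strain bab1-RA (bab1-s)-GFP, age not known), and the protein was pulled down with an antibody against GFP from chromatin broken by sonication. There were 3 samples, labelled biological replicates 1 to 3, all of 1 group, and nothing in the labels says how the flies or cultures were separated, so spreads between them may be technical. An untagged or input library was not analysed here, and every value is from a peak list. The whole fly was the source, so a peak cannot be assigned to a tissue, and binding in few cells cannot be told apart from weak binding in many.

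Myc is a basic helix-loop-helix leucine zipper protein that drives cell growth and ribosome production, and it binds DNA as a dimer with Max at the E-box CACGTG. Mnt dimerises with Max at the same sequence and represses, so it counters Myc. Mondo, the fly counterpart of the mammalian carbohydrate sensors ChREBP and MondoA, pairs with Bigmax, the counterpart of Mlx, and drives the response to dietary sugar. Bab1 is a BTB-domain factor with a pipsqueak-type DNA-binding domain, best known for its part in the patterning of abdominal pigmentation, legs and ovary.

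The lists used were the 30000 peaks of each replicate, the 30000 peaks of the pooled replicates, and the 6896 peaks kept by the authors as reproducible between the replicates by the irreproducible discovery rate (called IDR peaks here). The 6896 IDR peaks all stood unchanged in the pooled list. The signal value is the authors' score of a peak, and it can be compared only within a list, so strength is given as a signal value of the pooled data, as a rank in the IDR list with 1 the strongest, or as the top percent of a replicate list, in which a lower value is stronger. The strongest 6896 peaks of a replicate form its top list. No read counts were given in the lists, so depth is unknown.

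All 5 genes carried an IDR peak, beside 37.8% of all annotated genes and 44.3% of protein-coding genes, and nothing is read from that count. All 5 also had a summit in the top list of replicate 1 (36.4% of all genes), replicate 2 (37.0%) and replicate 3 (36.2%), and in the pooled list (60.5%). Together they held 25 IDR peaks, which were very unevenly divided. Mnt had 18, Mondo 3, Myc 2, Max 1 and bigmax 1.

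The sequences that follow lay under summits at 4 of the genes and are given first because the peaks differ in what they contain. The stronger of the Myc peaks is not among them because it lies in a 3′ UTR. They are on the plus strand of dm6, 5′ to 3′, from the RefSeq genome of that build. Capitals mark every match, on either strand, to any of the following patterns: any E-box written as CANNTG, of which CACGTG is 1 form, the replication-related element TATCGATA, the GAGA-type sequence GAGAG, the TATA box form TATAAA, the initiator form TCAGTC (its last base may also be T), and the repeat TATATA. The windows reach 50 bases to either side of the summits of the 3 strongest Mnt peaks (chrX:3695217-3695317, chrX:3673824-3673924 and chrX:3687047-3687147), of the intron peak of Myc (chrX:3381904-3382004) and of the strong peak upstream of Myc (chrX:3371397-3371497). For bigmax the stretch is the whole gap to the start of its divergent neighbour Hmu (chr3R:27288527-27288768). For Max it runs from the gene's start to the next annotated untranslated exon of its neighbours (chr3L:19264185-19264326). Though labelled a gap below, it does not run from start to start. Longer transcripts of both neighbours overlap the Max summit, and their start nearest to it lies past the end of the stretch.
Mnt, strongest summit: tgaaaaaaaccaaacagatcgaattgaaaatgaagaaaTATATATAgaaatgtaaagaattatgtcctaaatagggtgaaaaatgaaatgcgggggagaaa
Mnt, summit of IDR rank 627: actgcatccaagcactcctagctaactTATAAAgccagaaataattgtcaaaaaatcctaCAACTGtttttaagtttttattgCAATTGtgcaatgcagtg
Mnt, summit of IDR rank 890: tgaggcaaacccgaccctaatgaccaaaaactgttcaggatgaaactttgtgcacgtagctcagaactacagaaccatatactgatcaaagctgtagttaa
Myc, intron summit: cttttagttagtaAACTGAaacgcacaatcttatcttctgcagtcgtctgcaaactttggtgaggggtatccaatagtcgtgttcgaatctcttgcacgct
Myc, upstream summit: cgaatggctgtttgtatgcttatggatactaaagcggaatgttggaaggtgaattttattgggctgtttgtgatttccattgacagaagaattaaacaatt
bigmax, divergent gap: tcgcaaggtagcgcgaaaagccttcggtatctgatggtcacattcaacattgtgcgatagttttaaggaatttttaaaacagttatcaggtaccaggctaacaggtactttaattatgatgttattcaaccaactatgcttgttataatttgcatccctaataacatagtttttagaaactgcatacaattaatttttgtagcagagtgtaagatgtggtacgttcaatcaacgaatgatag
Max, divergent gap: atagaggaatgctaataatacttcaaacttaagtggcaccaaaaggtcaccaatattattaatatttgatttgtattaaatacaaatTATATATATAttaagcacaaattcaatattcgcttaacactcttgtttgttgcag

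None of these 7 stretches holds CACGTG. The strongest Mnt summit and the Max stretch each carry a short run of TA repeats, with 28.7% and 26.1% G and C. The Mnt summit of rank 890 and the upstream Myc summit have no match to any of these patterns, and the bigmax gap has none either, though it holds CGATA, a pattern added after the data were seen and left in lower case. The Max stretch ends just past its summit, and the CANNTG and initiator matches within 50 bp of that summit are not wholly inside it.

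CACGTG was found in 5 of the 25 member peaks when the whole peak was searched, and all 5 were in Mnt. They are shown with 18 bases on either side, capitals marking CACGTG and GAGAG (or CTCTC, its other strand), because CACGTG is the sequence that the proteins of this network bind. They lie at chrX:3673982-3674023, chrX:3677083-3677124, chrX:3682452-3682493, chrX:3688064-3688105 and chrX:3695659-3695700.
Mnt, peak of rank 627: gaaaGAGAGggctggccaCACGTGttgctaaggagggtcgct
Mnt, peak of rank 2884: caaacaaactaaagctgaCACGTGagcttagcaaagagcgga
Mnt, peak of rank 1081: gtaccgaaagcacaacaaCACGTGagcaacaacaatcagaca
Mnt, peak of rank 6006: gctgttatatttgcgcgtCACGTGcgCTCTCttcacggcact
Mnt, peak of rank 5541: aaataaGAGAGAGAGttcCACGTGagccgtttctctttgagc

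These 5 E-boxes were 128, 196, 148, 120 and 211 bp from the summit of their peak, in the order shown, so none was at a summit. In 3 of the 5 a GAGAG stood within the same 42 bases. The share of peaks with CACGTG was 20% of the 25, 4.90% of all IDR peaks and 3.68% of the 408 IDR peaks in introns on the X. With 5 matches in 1 gene this is a description of Mnt.

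Mnt (FBgn0023215, dm6 chrX:3671801-3701672, plus strand, 10 annotated transcripts) is the repressor of the network. Its 18 IDR peaks tied with Tlk, a gene of 69764 bp against the 29872 bp of Mnt, for the most of any gene. Among the 350 other genes of like length (at most 25% longer, or shorter by the same factor), the median was 1 IDR peak, the mean was 1.42 and the highest count was 11. Its count was 16 in the top list of replicate 1, 16 in that of replicate 2 and 15 in that of replicate 3 (15.7 ± 0.577, SD, n = 3). The whole lists of replicates 1, 2 and 3 held 33, 27 and 36 summits at Mnt. The high count was therefore present in each replicate. When the IDR peaks had to lie in the top lists of both remaining replicates, Mnt kept 10 without replicate 1, 11 without replicate 2 and 14 without replicate 3. The 18 summits lay in 17 intervals, since 2 of them shared the interval chrX:3677825-3678363. These intervals were not all separate: chrX:3687890-3688051 overlapped chrX:3687992-3688415, and chrX:3695008-3695407 overlapped chrX:3695364-3695692.

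**Figure D1:**
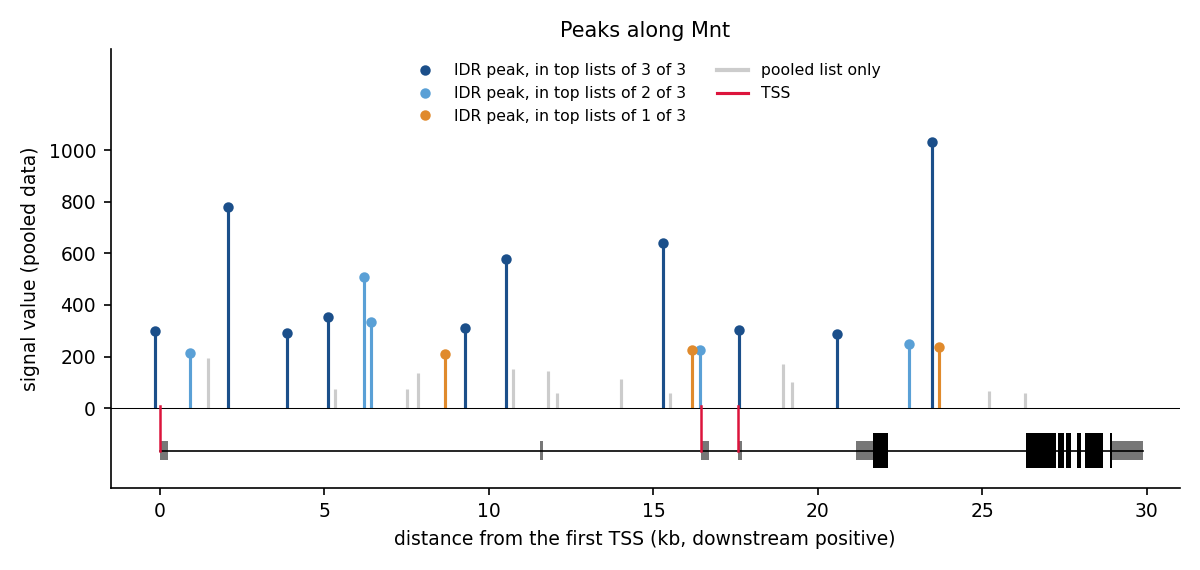
Signal value in the pooled data (y axis) of each peak along Mnt against its distance in kb from the first transcription start site (TSS). Coloured stems with points are IDR peaks, by the number of replicate top lists that hold them, and grey stems are peaks of the pooled list only. Below are the gene model (black, coding; grey, untranslated exon) and the 3 TSSs in red. The IDR peaks are spread from just upstream of the first TSS to 23667 bp downstream, most of them before the coding part.

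The Mnt peaks filled the long 5′ part of the gene. Mnt has 3 TSSs, at 3671801, 3688235 and 3689363, used by 1, 5 and 4 annotated transcripts, and its coding part starts 21684 bp downstream of the first. Of the 18 summits, 12 lay between the first and the second TSS, 14 lay inside the gene before the coding start, 3 lay after it and 1 was upstream of the gene. By the gene model of Mnt 16 summits were in introns, 1 was in a 5′ UTR and none was in a coding exon. The 3 introns that held them run from 3672040 to 3683352 (11313 bp), from 3683450 to 3692952 (9503 bp) and from 3693933 to 3698744 (4812 bp). Neighbouring summits were at most 4773 bp apart, with a median gap of 1157 bp.

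The strongest Mnt peak, chrX:3695008-3695407, was in the third of these introns, downstream of the coding start. The pooled signal value there was 1031, rank 361 of 6896. Its signal value was 255 in replicate 1, 614 in replicate 2 and 170 in replicate 3 (scales differ between lists), which placed it in the top 1.72%, 0.833% and 2.29% of the lists (1.61 ± 0.733, SD, n = 3). It was thus near the head of all 3 lists.

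The next peak, chrX:3673700-3674015, lay in the first intron, 2073 bp downstream of the first TSS, with a pooled signal value of 778, rank 627. It was in the top 1.47%, 2.89% and 3.30% of the lists of replicates 1, 2 and 3 (2.55 ± 0.958). The peak chrX:3686938-3687247, 1138 bp upstream of the second TSS, had a pooled signal value of 642, rank 890. It was in the top 4.46%, 2.76% and 2.24% (3.16 ± 1.16). These 3 peaks took turns as the strongest of Mnt: the peak of rank 627 led in replicate 1, that of rank 361 in replicate 2 and that of rank 890 in replicate 3.

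Other Mnt peaks differed more between replicates. The peak chrX:3682120-3682503, pooled signal value 579 and rank 1081, was in the top 1.94%, 4.33% and 10.3% of the 3 lists. The interval with 2 summits, of signal values 507 and 333, was in the top 8.55%, 2.63% and 26.2%, so that it missed the top list of replicate 3. The summit of chrX:3687890-3688051, pooled signal value 225, lay inside a peak of replicate 2 alone, in the top 20.3%. Peaks of replicates 1 and 3 overlapped that interval, but began at 3687980 and 3687985, just past the summit at 3687976. Of the 18 peaks, 10 stood in each of the 3 top lists, 5 in 2 of them and 3 in 1. In strength they ran from rank 361 to rank 6629, with 7 among the 3448 strongest IDR peaks and 6 among the 1724 weakest.

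The TSSs of Mnt themselves carried weak peaks. Only 4 of the 18 summits lay within 300 bp of a Mnt TSS. The summit at the first TSS was 166 bp upstream of Mnt and 133 bp upstream of the divergent gene Parg, which encodes poly(ADP-ribose) glycohydrolase, so this peak cannot be given to 1 of them. Its pooled signal value was 297, rank 3956, and it was in the top 4.90%, 15.5% and 19.1% of the lists. The summits 259 and 31 bp upstream of the second TSS had signal values of 225 and 225, ranks 5992 and 6006. The summit 26 bp downstream of the third had a signal value of 301.3, rank 3849. All 4 ranked below the 3448 strongest IDR peaks. In the pooled list Mnt had 13 further peaks outside the IDR list, with signal values of 57.8 to 196.

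**Figure D2:**
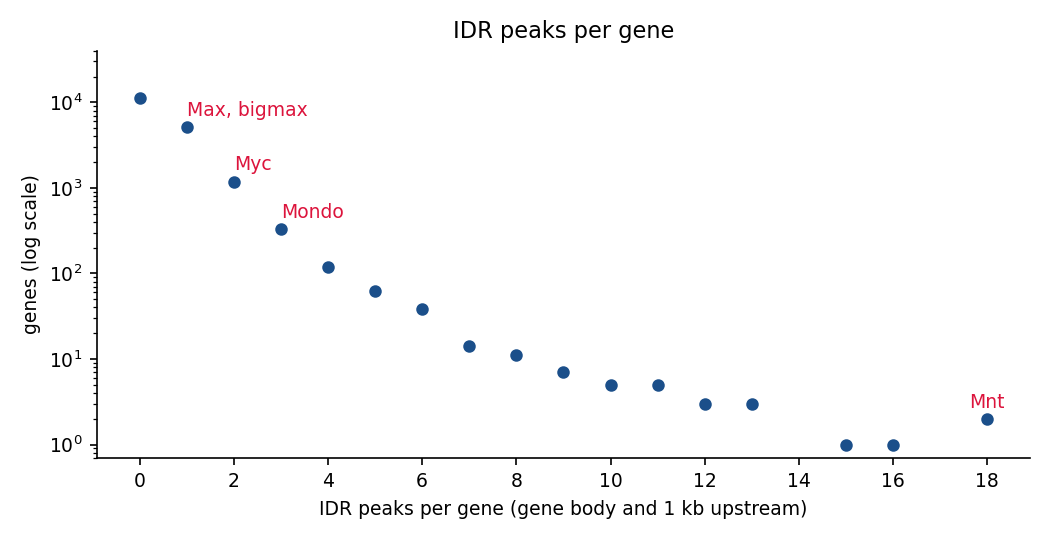
Number of annotated genes (y axis, log scale) against the number of IDR peaks in the gene body and 1 kb upstream (x axis). Each point counts the genes with that number of peaks, and red names mark where the 5 network genes fall. Mnt is at the far end with 18 peaks, shared with 1 other gene, while Max and bigmax have 1 peak each.

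Myc (FBgn0262656, chrX:3373159-3391697, plus strand, 2 transcripts from 1 TSS), the activator of the network, carried 2 IDR peaks, neither of them at its start. The peak chrX:3389984-3390220 lay in the 3′ UTR, 16907 bp downstream of the TSS, where the genes CG12535 and lncRNA:CR44999 also overlap the summit. Its pooled signal value was 492, rank 1504, and its signal values in replicates 1, 2 and 3 were 194, 256 and 45.6. It was in the top 2.92%, 4.80% and 29.5% of the lists. A weaker replicate 2 peak, chrX:3389995-3390205, also held the summit, with a signal value of 162 and in the top 11.9%. By its place in the list the 3′ UTR peak was far weaker in replicate 3 than in the other replicates, and it missed the top list of replicate 3.

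The peak chrX:3381813-3382030 lay in the 8153 bp intron of Myc, 8795 bp from the TSS, with a pooled signal value of 369.7, rank 2628, and lncRNA:CR44999, which starts with Myc, overlaps it too. Its signal values in replicates 1, 2 and 3 were 132, 134 and 108. It was in the top 6.34%, 16.4% and 6.30%, and thus in all 3 top lists. At the Myc TSS there was no IDR peak. The pooled list held a weaker peak 131 bp upstream of the TSS at rank 7960, and the replicate lists held peaks 144, 122 and 44 bp upstream at ranks 8058, 9956 and 5775, of which only that of replicate 3 entered a top list. Myc had 13 pooled peaks in all, so 11 stayed outside the IDR list, with signal values of 62.1 to 184. Among 511 other genes of like length, 175 had at least as many IDR peaks.

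The strongest peak near Myc was just outside the 1 kb limit. The summit of chrX:3371301-3371680 was 1712 bp upstream of the TSS, 712 bp beyond the region, with no annotated gene over it, and Myc and lncRNA:CR44999 had the nearest TSS. Its pooled signal value was 1128, rank 297, above each of the 25 peaks inside. Its signal values in replicates 1, 2 and 3 were 375, 531 and 213, in the top 0.78%, 1.15% and 1.31% (1.08 ± 0.272, SD, n = 3). The replicate summits lay within 7 bp of the IDR summit. For the other genes the nearest IDR peak outside the region was farther away: 1619 bp for Max (signal value 253, rank 5097), 2803 bp for Mnt (519, rank 1336), 3215 bp for bigmax (211, rank 6546) and 22174 bp for Mondo (326, rank 3343). At the inner edge of the limit stood a Mondo peak, 902 bp upstream, with a signal value of 233.

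Max (FBgn0017578, chr3L:19262232-19264184, minus strand), the shared partner of Myc and Mnt, had 1 IDR peak, between divergent starts. The peak chr3L:19264183-19264421 had its summit 137 bp upstream of Max and 83 bp upstream of the nearest start of Mettl5 and CG42374, on the opposite strand, and longer transcripts of both neighbours overlap it. With a pooled signal value of 481 it was at rank 1580. Its signal values were 131, 238 and 103 in replicates 1, 2 and 3. It was in the top 6.47%, 5.58% and 7.11% of the lists (6.39 ± 0.769, SD, n = 3), a narrow range.

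bigmax (FBgn0039509, chr3R:27287366-27288526, minus strand), the partner of Mondo, also had 1 IDR peak between divergent starts. The peak chr3R:27288504-27288763 had its summit 154 bp upstream of bigmax and 89 bp upstream of Hmu. Its pooled signal value was 520.0, rank 1332. Its signal values were 144, 240.1 and 157 in replicates 1, 2 and 3, in the top 5.33%, 5.51% and 2.71% (4.52 ± 1.57). At Max and at bigmax the summit was closer to the neighbour's start than to the gene's own, and the peak cannot be given to 1 gene of the pair.

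Mondo (FBgn0032940, chr2L:21286078-21310050, minus strand, 11 transcripts from 3 TSSs), the sugar-responsive factor, had 3 IDR peaks, and all 3 were among the 1724 weakest of the IDR list. They clustered in 2945 bp at the 5′ end of the gene. The peak chr2L:21309398-21309511, 70 bp downstream of the TSS at 21309489 and in the 5′ UTR, had a pooled signal value of 240.0, rank 5504. Its signal values in replicates 1, 2 and 3 were 75.5, 54.1 and 97.4, in the top 17.8%, 52.6% and 7.97%. Replicate 2 was the weakest by far and fell outside its top list.

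The peak chr2L:21310868-21311109 was 902 bp upstream of Mondo and 86 bp inside crc, the fly ATF4 gene, whose start it is nearer to. Its pooled signal value was 233, rank 5731. It had no peak in replicate 1, and was in the top 19.0% and 6.31% of the lists of replicates 2 and 3. The intron peak chr2L:21307795-21308218 had a pooled signal value of 212, rank 6484, and was in the top 36.0%, 21.4% and 12.5%. Each of the 3 was in 2 of the 3 top lists. Across the gene, the top lists of replicates 1, 2 and 3 held 1, 2 and 4 summits (2.33 ± 1.53), so the count at Mondo was the least even of the 5. Without replicate 3 none of its IDR peaks was in both remaining top lists, 1 was without replicate 2, and 2 were without replicate 1. Among 413 other genes of like length, 97 had at least 3 IDR peaks. The pooled list held 12 further Mondo peaks, with signal values of 59.1 to 191.

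**Figure D3:**
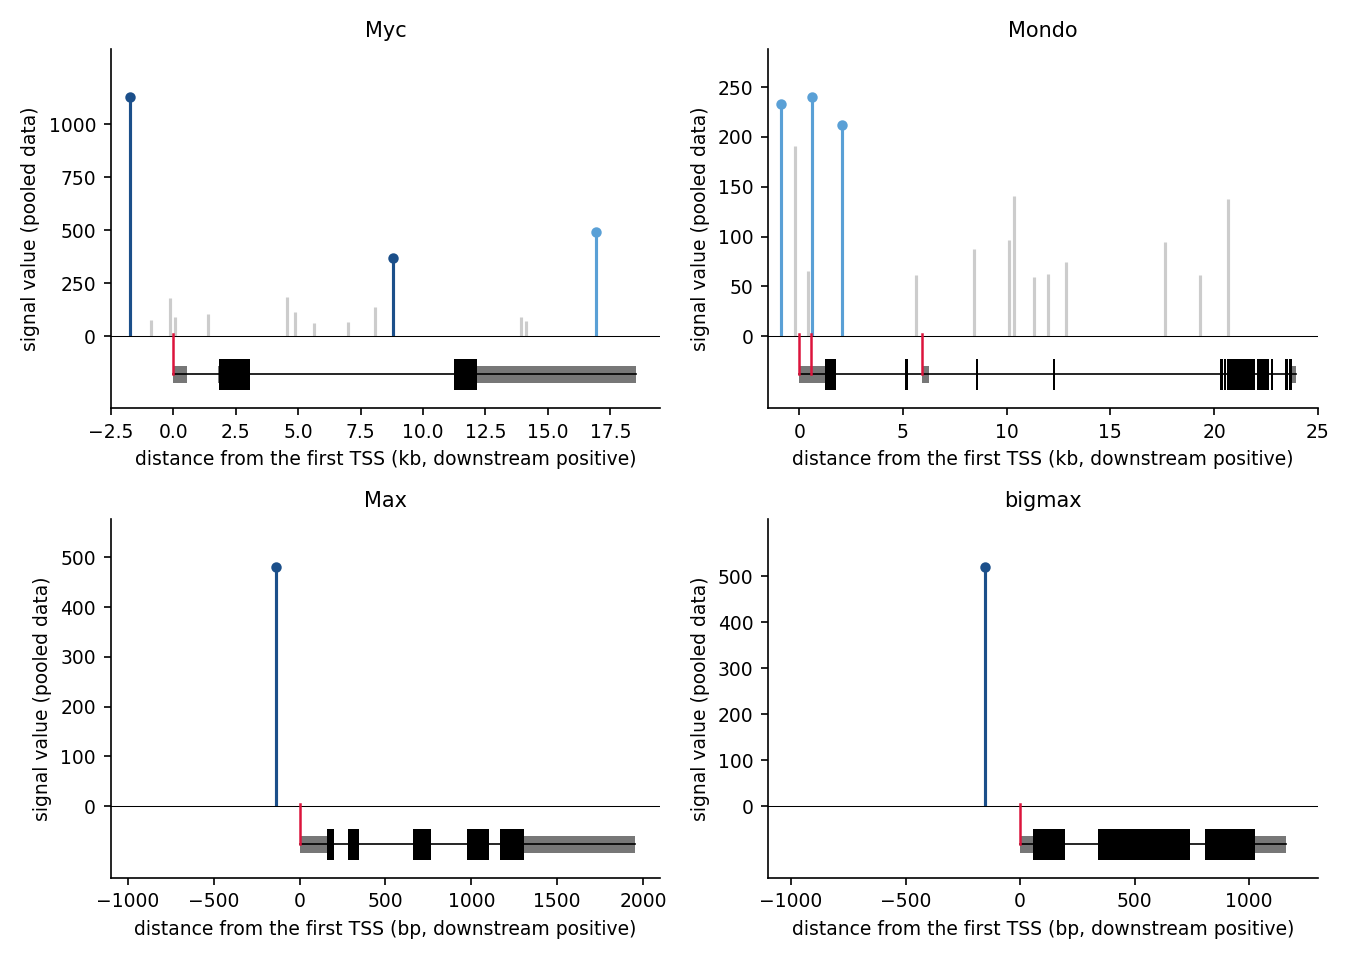
Signal value in the pooled data (y axes, each panel on its own scale) of each peak at Myc, Mondo, Max and bigmax against the distance from the first TSS (kb above, bp below). Dark blue stems are IDR peaks in all 3 replicate top lists, light blue stems IDR peaks in 2, and grey stems peaks of the pooled list only, with gene models and TSSs (red) below. The Myc panel includes the peak of signal value 1128 that lies 1712 bp upstream, outside the gene region, and the Max and bigmax peaks sit just upstream of the start.

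The genes were ordered by whichever of their peaks was strongest in each replicate list, as a description, so that for Mnt, Myc and Mondo the values join different peaks. Mnt came first, at the top 1.52 ± 0.706% (mean ± SD, n = 3 replicates; range 0.833 to 2.24). bigmax followed at 4.52 ± 1.57% (2.71 to 5.51), then Myc at 4.67 ± 1.70% (2.92 to 6.30). Max was at 6.39 ± 0.769% (5.58 to 7.11) and Mondo at 14.3 ± 6.99% (6.31 to 19.0). The range of Mnt did not overlap that of any other member. Its values were the strongest of 33, 27 and 36 peaks in replicates 1, 2 and 3, against 1, 1 and 2 at Max and at bigmax. The strongest of many peaks tends to rank higher than a single peak, so this gap was not read as a difference in binding. The ranges of bigmax and Myc, of Myc and Max, and of Max and Mondo overlapped, which does not show that these neighbours were alike. Within each replicate list Myc ranked above Max: 2.92% against 6.47%, 4.80% against 5.58%, and 6.30% against 7.11%. bigmax also ranked above Max in each, at 5.33%, 5.51% and 2.71%. The order of bigmax and Myc, and that of Max and Mondo, changed between replicates. Followed as 1 peak through the replicates, the strongest IDR peak gave another order: Mnt at 1.61 ± 0.733%, bigmax at 4.52 ± 1.57%, Max at 6.39 ± 0.769%, Myc at 12.4 ± 14.8% (2.92 to 29.5) and Mondo at 26.1 ± 23.5% (7.97 to 52.6). Mnt was first in both orders, Myc moved behind Max, and the range of Myc overlapped those of bigmax, Max and Mondo. That first place of Mnt held only inside the 1 kb limit. The peak 1712 bp upstream of Myc was at 1.08 ± 0.272% (0.78 to 1.31). Counted for Myc, as with 2 kb upstream or the nearest TSS, it would put Myc before Mnt by mean, with overlapping ranges. By length the order was another one: Mnt had 0.583 IDR peaks per kb of region, bigmax 0.463, Max 0.339, Mondo 0.120 and Myc 0.102, the values of bigmax and Max resting on 1 peak in a short gene.

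**Figure D4:**
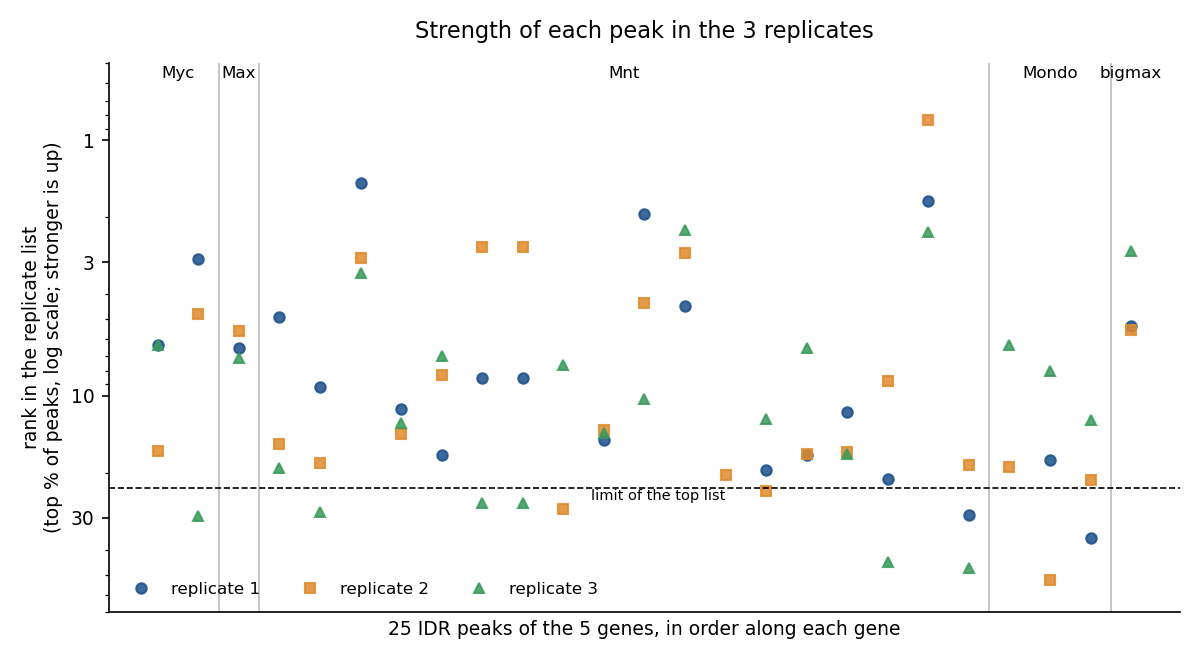
Strength of each of the 25 IDR peaks in the 3 replicates, as the top percent of the replicate list (y axis, log scale, stronger upward), in order along each gene. Symbols are replicates, a missing symbol means no replicate peak over the summit, and the dashed line is the limit of the top list. The strongest Mnt peak stands above the rest in replicate 2 at 0.833%, and the Mondo peaks are highest in replicate 3.

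As a set, the 25 peaks lay in introns more than in promoters. By all annotated genes, 16 were in introns, 8 were in promoters (from 1000 bp before a TSS to 100 bp after it) and 1 was in a 3′ UTR, whereas 72.7% of all IDR peaks were in promoters and 19.1% in introns. Of the 16, Mnt alone held 14. The median G and C content within 50 bp of the summit was 38.6% for the 25 and 38.6% for all IDR peaks. They were 114 to 539 bp wide with a median of 260 bp, beside 329 bp for all. Of the 25, 13 stood in every one of the 3 top lists, beside 57.0% of all IDR peaks. Another 9 were in 2 lists, beside 29.7% of all, and 3 were in 1, beside 12.5%. In all 3 whole lists 22 of the 25 had a peak, and nothing is read from that count, since the share of all IDR peaks was not taken.

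Within 50 bp of the 25 summits CANNTG was less frequent than at all IDR peaks, and 4 other patterns were more frequent, on small counts and with no test. CACGTG was in 0 of 25, beside 1.247% of all IDR peaks, and any CANNTG was in 6 (24%), beside 39.4%. TATCGATA, the DNA replication-related element found in many housekeeping promoters, was in 0, beside 4.41%. GAGAG, the core of the site of GAGA factor, was in 5 (20%), beside 11.7% of all. TATAAA was in 6 (24%, beside 16.5% of all), TCAGTC with C or T as the last base, an initiator form, in 4 (16%, beside 10.5%), and TATATA in 4 (16%, beside 7.93%). A carbohydrate response element, searched as a pair of CACGTG spaced by 5 bases with up to 2 mismatches in the pair, was in 0 (0.174% of all). Of the patterns added after the data were seen, GGTCACAC was in 0 (3.07%), CGATA, which TATCGATA contains, in 3 (12%, beside 23.0%), and CACACACA in 0 (1.91%). Most of the 25 lay in introns. Among all IDR peaks in introns, CGATA (12.39%), GGTCACAC (0.076%), TATCGATA (0.456%) and TATAAA (19.98%) had shares nearer those of the 25. GAGAG (12.54%), TATATA (8.43%) and CACGTG (0.912%) were slightly nearer. CANNTG (39.97%), the initiator form (8.97%), CACACACA (2.66%) and the carbohydrate response element (0.38%) were farther. Against the 408 IDR peaks in introns on the X some patterns changed side. There GAGAG (9.07%) was farther than among all IDR peaks, and CANNTG (37.5%) and CACACACA (1.47%) were nearer. Whether location accounts for these differences was not tested. In the whole peaks GAGAG was in 16 of 25, of which 13 were in Mnt, beside 34.9% of all IDR peaks. Mnt holds 18 of the 25 peaks, so these shares are weighted to it. Within 50 bp it held 5 of the 6 with CANNTG, 3 of the 5 with GAGAG and 4 of the 6 with TATAAA. It also held 2 of the 4 with the initiator form and 3 of the 4 with TATATA. A pattern is a match of letters and shows no binding.

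Genes whose strongest peak was most alike in the 3 replicate lists were chosen by the smallest of their largest differences in top percent. Hmu stood at the same values as bigmax, and Mettl5 and CG42374 at the same as Max, because they share the peak. For Mnt they were CG2540 and Aven, both at 1.54%, 0.947% and 2.27% in replicates 1, 2 and 3, and CG3842, each with 1 IDR peak. The Mnt values they were matched to, 1.47%, 0.833% and 2.24%, come from 3 different peaks, so the likeness is to no single Mnt peak. For Myc they were fz, a Wnt receptor gene, at 2.80%, 4.41% and 6.10%, then a small nucleolar RNA gene and CG31224. The Myc values, 2.92%, 4.80% and 6.30%, join the 3′ UTR peak in replicates 1 and 2 with the intron peak in replicate 3, and those of Mondo also join different peaks. For Mondo they were Hcs at 18.3%, 19.6% and 6.50%, Naa40 and Kul. The third for Max was CG11170, and for bigmax the others were Golgin97 and cnn.

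Genes around the network were taken from 4 lists of textbook names, counted against the 37.8% of all genes with an IDR peak. Of the Myc cofactors and regulators, 17 of the 18 matched genes had an IDR peak, and 18, 17 and 13 had one in the top lists of replicates 1, 2 and 3. With peaks in both remaining top lists required, 11 did without replicate 1. The strongest were at brm (rank 44, nearest the start of Arl1), a chromatin remodeller ATPase, osa (rank 124, nearest lncRNA:CR46036), a subunit of the same complex, Sin3A (rank 178, in an intron), a corepressor that Mnt-type proteins recruit in mammals, and scny (rank 462), a ubiquitin protease. The gene without an IDR peak was puf, another ubiquitin protease, which had a summit in the top list of replicate 1, as all 18 did. Of these 4, the peaks at brm and osa were nearer the start of another gene.

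Of the ribosome biogenesis genes known as Myc targets, 15 of 16 matched genes had an IDR peak, and 10, 16 and 15 had one in the replicate top lists. Replicate 1 was thus the lowest. The strongest were at CG12301 (rank 589, nearest the start of mrn), Nop56 (rank 635, nearest mats), Nnp-1 (rank 1382) and nclb (rank 1497, nearest CG30015). Tif-IA, an initiation factor of RNA polymerase I, had none. Of the sugar-response genes of Mondo and Bigmax, 9 of 10 had an IDR peak, and 8, 9 and 9 had one in the replicate top lists. The strongest were at cbt (rank 581), a factor induced by sugar, Zw (rank 637, nearest asRNA:CR44512), which encodes glucose-6-phosphate dehydrogenase, and the fatty acid synthesis genes FASN1 (rank 893) and ACC (rank 1157). Pepck1, of gluconeogenesis, had none.

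Of other helix-loop-helix factors, 7 of 10 matched genes had an IDR peak. Their list is called other E-box factors here, though emc does not itself bind DNA. In the replicate top lists 8, 6 and 8 of these genes had a peak. With peaks in both remaining top lists required, 4 did without replicate 3. They were led by crp (rank 555, in an intron), SREBP (rank 583), a regulator of lipid synthesis, emc (rank 1624) and tgo (rank 2368), while Clk, dpn and Mitf had none. The peaks at these genes were fewer than at Mnt: the highest count in the 4 lists was 8, at crp. The 4 lists were chosen with earlier results of these data known, so their shares are no evidence about the network. Of the 48 listed genes with an IDR peak, 45 had their strongest one in a promoter. With the gene body alone the counts were 11 of 18 cofactors, 5 of 16 ribosome biogenesis genes, 8 of 10 sugar-response genes and 5 of 10 other E-box factors, beside 17.4% of all genes, so the count for ribosome biogenesis rested mostly on the 1 kb upstream.

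**Figure D5:**
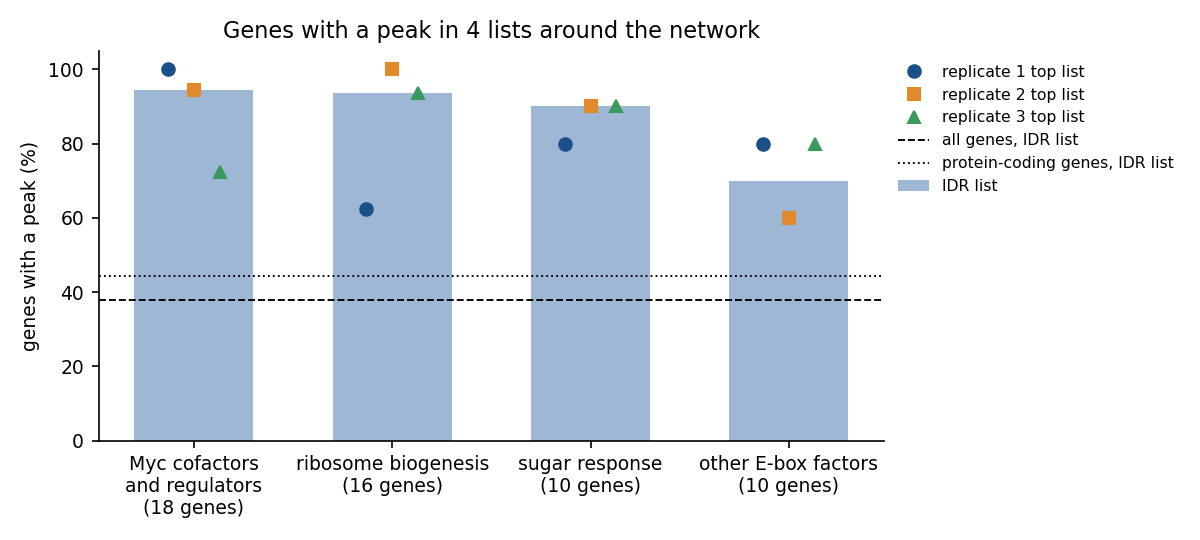
Percent of the matched genes of 4 lists that carried a peak (y axis) in the IDR list (bars) and in each replicate's top list (symbols), with the share of all genes (dashed line, 37.8%) and of protein-coding genes (dotted line, 44.3%) in the IDR list. The bars run from 70% to 94.4%, and replicate 1 is lowest for ribosome biogenesis genes.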

How the data were processed

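Peak lists on dm6 of 3 Bab1-GFP ChIP-seq samples were used in the deposited narrowPeak layout. The signal value of each peak and its −log10 q value were deposited by the authors. The file listings that came with them, as deposited, say that alignments and a control library stood behind every list; the control was not analysed here. Which aligner and peak caller were used, and at which IDR threshold, is not given in the sources used here. Chromatin fragments of 200 to 800 bp were used per the labels. Depth is unknown, so no interval from counting was given. The −log10 q value was 1 value throughout the IDR list and was not used for ranking.

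Summits were the peak start plus the deposited offset, written 1-based. Genes and TSSs came from Ensembl release 115 (BDGP6.54), without transposable elements and the Y, and sequence from the RefSeq genome of dm6. A replicate peak matched an IDR peak when it held its summit. Where more than 1 did, the strongest was used. All assignment was made with Python 3.11.15, pandas 2.3.3 and numpy 2.4.6, and the rules were tested on planted peaks with known answers. The 3 samples form 1 group, so no test between groups was made, and means are over replicate lists.

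The 5 genes, the gene lists and the patterns were chosen with earlier results of these data known. Genes named in the text were the 5 members, genes with a TSS within 1 kb of a member's IDR summit, up to 4 genes with the strongest peak of each list, and the 3 genes most like each member. Outside this rule, chosen after their values were seen, are Tlk, the genes over the Myc 3′ UTR peak, the listed genes without a peak and the neighbours whose start was nearest a named peak. The symbols lid, Trrap, RpI1, RpI135 and h matched no annotated gene and were not analysed here. Alternatives were other gene regions, peak lists, overlap rules, promoter limits and windows, and each replicate left out.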

Additional observations from a re-analysis of the deposited data

How the results depend on the processing

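Among alternatives of the main counts, 68 values stayed within 1.5 times the reported count and 30 did not. With the gene body alone, or with the nearest TSS deciding the gene, 3 of the 5 members kept an IDR peak, and Max and bigmax had 0. With 2 kb upstream or the nearest TSS, Myc had 3 IDR peaks, the added one at rank 297, ahead of every Mnt peak. The 25 member peaks became 11 among the 3448 strongest IDR peaks and 61 in the pooled list. When IDR peaks had to lie in the top lists of both remaining replicates, a stricter demand by construction, the count was 15 without replicate 1, 15 without replicate 2 and 18 without replicate 3. In the whole replicate lists 22 member peaks, not 13, were found in all 3, with no share of all IDR peaks taken for comparison. With the gene body alone, 11 cofactor genes and 5 ribosome biogenesis genes had a peak. Leaving out a replicate gave 11 to 15 cofactor genes, with 11 without replicate 1, and 4 to 5 other E-box factors, with 4 without replicate 3.

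Windows decide the pattern counts, and for CANNTG also the direction. With 150 bases on either side its share of the 25 was 84%, above that of all IDR peaks. It was 48% with 100 bases and 64% in the whole peak, both below. The initiator form was at 28% in each of these, near the share of all IDR peaks at 150 bases and in the whole peak. In windows of 100 and 150 bases on either side and in the whole peak, CANNTG was in 12, 21 and 16 of 25 peaks (all IDR peaks 63.3%, 78.4% and 76.5%), GAGAG in 12, 17 and 16 (24.3%, 34.8% and 34.9%), TATAAA in 11, 13 and 12 (28.8%, 38.5% and 38.6%), the initiator form in 7, 7 and 7 (18.9%, 26.8% and 27.2%), and TATATA in 7, 10 and 9 (15.0%, 20.9% and 21.3%). CACGTG was in 3 at 150 bases and 5 in the whole peak (4.35% and 4.90%), and TATCGATA in 1 at 100 and 1 at 150 bases (7.74% and 10.1%). The match to TATCGATA was at bigmax in both windows. Ranking by the other score columns was not run, since they hold 1 value throughout. No paired analysis was possible because there is 1 group. With no counts, depth limits cannot be given, and the lowest IDR signal value was 202.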
